A study of Mus musculus with 6 samples.

Results

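The transcriptome of activated wild-type T cells was described from 3 of the 6 RNA-seq libraries of the series, those whose labels give the genotype wild type. The cells were purified from the spleen of C57BL/6 mice aged 2 months and were stimulated in culture through the T cell receptor (anti-CD3) and the costimulatory receptor CD28 (anti-CD28) with IL-2 present. The other 3 libraries carry the genotype Drp1-/- and are not used here. The labels name no separate animals, cultures or days for the replicates, so the spread between libraries may be biological or technical, and they give neither the length of the stimulation nor the purity of the T cells. The rows of the deposited table are gene symbols and its values are raw read counts.

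A resting T cell is small and makes little protein. Signals through the T cell receptor and CD28 start transcription of cytokine and cytokine receptor genes, and IL-2 then drives growth and division through its own receptor. The dividing blast takes up glucose and amino acids, ferments much of the glucose to lactate, builds ribosomes under the control of Myc, and, when it becomes a killer cell, loads granules with granzymes and perforin.

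Levels are given as CPM, the counts of a gene scaled to a common library size, with TMM scaling over the 3 libraries. A CPM grows with transcript length, so levels of different genes are compared as CPM per kilobase of merged exons (CPM per kb), apart from a ranking of the highest genes by CPM. Library totals were 24738017, 30261781 and 31885899 counts in replicates 1, 2 and 3, and the TMM factors were 0.984, 1.01 and 1.01. A count of 3 corresponded to 0.123, 0.0983 and 0.0933 CPM, which is also the limit that a count of 0 allows, for counting error only. Symbols with at least 1 count numbered 19467, 20005 and 19971 in replicates 1, 2 and 3, of 45808 rows, and 23595 rows were at 0 in all 3.

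Replicate 1 differed more from replicates 2 and 3 than these did from each other. The biological coefficient of variation, the spread between libraries beyond counting error in edgeR, was 9.54% for replicates 1 and 2, 9.93% for replicates 1 and 3 and 2.61% for replicates 2 and 3. Over 8881 genes at a mean of 10 CPM or more, the log2 ratio between libraries had an SD of 0.19 for either pair with replicate 1 and 0.08 for replicates 2 and 3. In the same genes 56 and 69 differed by at least 1.5-fold between replicate 1 and replicates 2 and 3, and 1 gene did so between replicates 2 and 3. The mean chi-square per gene of the counts was 12.8, 14.2 and 2.57 for pairs 1 and 2, 1 and 3, and 2 and 3. The median was far lower, at 2.59, 2.74 and 0.773. By either measure replicates 2 and 3 were the closest pair, and they still differed by more than sampling noise. Replicate 1 had the fewest counts and the highest level of Malat1, a nuclear RNA, at 469, 385 and 411 CPM in replicates 1, 2 and 3. Among the lists of other cell types given below, the summed levels of B cell, MHC class II, macrophage, platelet, erythroid and stromal markers were lowest in replicate 1, those of dendritic and NK cell markers highest, and that of mast cell markers in between. The part of depth, nuclear RNA and other cells in the difference was not tested. Levels of the genes that the results turn on are therefore printed for each library, in the order replicate 1, 2 and 3, and other levels as the mean ± SD over the 3 libraries.

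**Figure D1:**
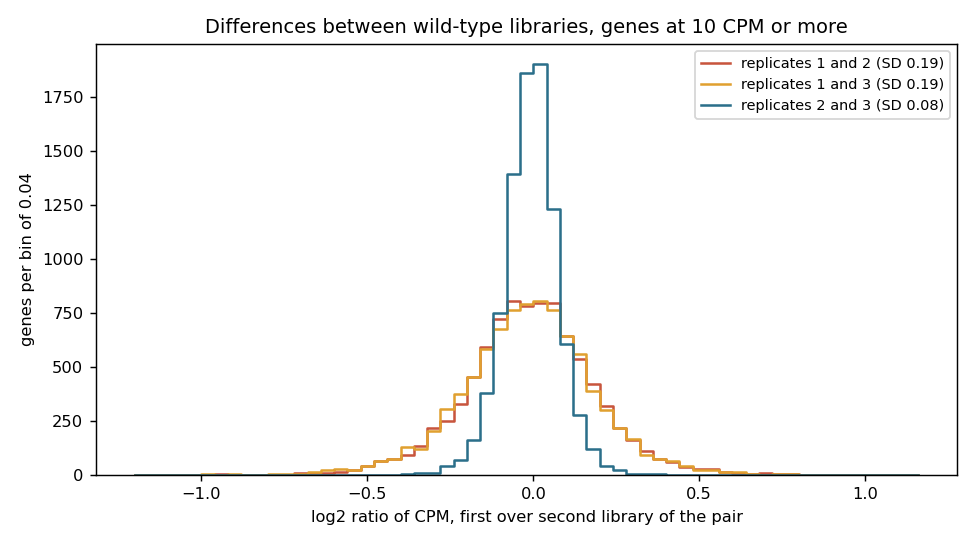
Histogram of the log2 ratio of CPM between the libraries of each pair (horizontal axis) against the number of genes in each bin of 0.04 (vertical axis), for the 8881 genes at a mean of 10 CPM or more. The ratio of replicates 2 and 3 (SD 0.08) is the narrow curve, and the 2 pairs that hold replicate 1 (SD 0.19 each) form the broad ones.

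The libraries were broad rather than dominated by a few transcripts. At 1 CPM or more in all 3 libraries stood 11765 genes, at 10 CPM or more 8685, at 100 CPM or more 2264 and at 1000 CPM or more 81. The 10 genes with most counts held 6.12%, 6.03% and 5.90% of the counts of replicates 1, 2 and 3, and 902 genes held 50% of them. Protein-coding genes held 97.5%, 97.6% and 97.6% of counts. The 90 cytosolic ribosomal protein genes alone held 9.63%, 9.52% and 9.19%.

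By CPM the first place went to Eef1a1, the elongation factor that carries aminoacyl-tRNA to the ribosome, at 13172, 12833 and 12546 CPM in replicates 1, 2 and 3. Eef2, which moves the ribosome along the message, followed at 9699, 9372 and 9595 CPM. The next protein-coding messages were mt-Co1 (8279 ± 624 CPM, mean ± SD, n = 3), Rpl4, Hsp90ab1, a cytosolic chaperone, and Tmsb4x, which binds monomeric actin. Aldoa and Pkm, 2 enzymes of glycolysis, and Gnb2l1, the ribosomal scaffold also called Rack1, were among the first 12 by CPM as well. Gzmb, the granzyme B of killer granules, ranked 11 by CPM and 9 per kilobase, so an effector gene stood among housekeeping messages by either measure. Of the first 12, Yam1 (4141, 4399 and 3868 CPM) had no entry in the annotation used and was given no length.

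Per kilobase the order changed at the top. The row Mir6236, a feature of 123 bases annotated as a miRNA gene, came first at 6945, 6329 and 6694 CPM per kb, computed over that short length. After it, and leaving out ribosomal protein genes, came mt-Co1 (5358 ± 404 CPM per kb), Eef1a1 (5155 ± 126), Tmsb4x (3149 ± 68.1), Eef2 (2875 ± 50.3) and Gzmb (2014 ± 131 CPM per kb). B2m, the light chain of MHC class I, stood at 1784 ± 96.5 CPM per kb, and Hsp90ab1 at 1616 ± 29.9. Aldoa (1415 ± 94.8 CPM per kb), Actb (1055 ± 89.1), Npm1 (975 ± 67.8), a nucleolar chaperone, and mt-Nd1 (862 ± 108) completed the 12. Neighbours in this order did not always differ beyond their spread: mt-Co1 and Eef1a1 differed by less than the SD of mt-Co1, and Actb and Npm1 by less than the SD of Actb.

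**Figure D2:**
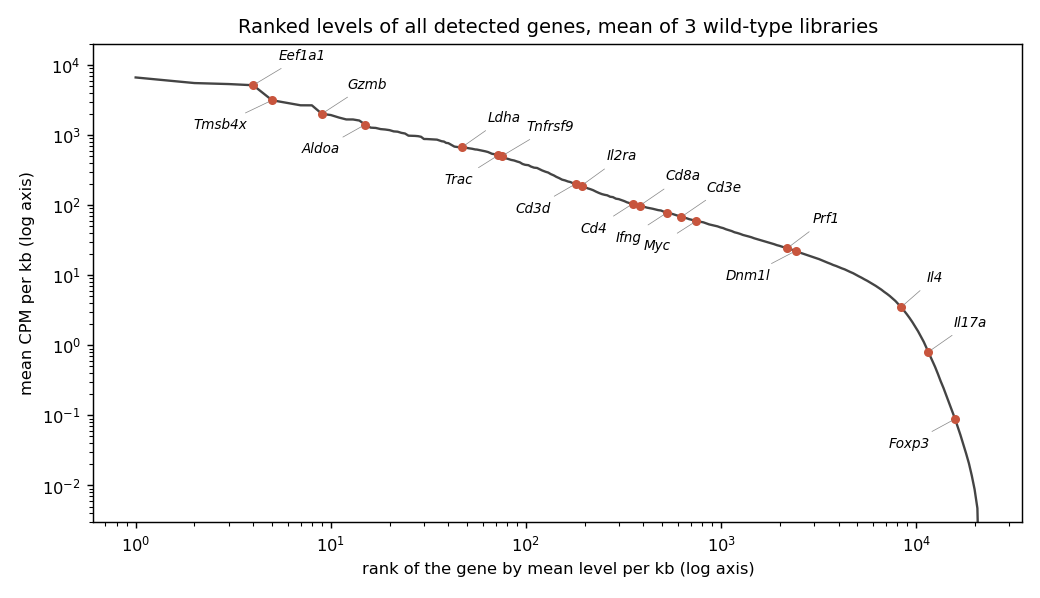
Mean CPM per kb of every detected gene with a length (vertical log axis) against its rank (horizontal log axis), with named genes as points. Gzmb ranks 9, Trac 72, Il2ra 193, Cd3e 626, Myc 748, Dnm1l 2408 and Foxp3 15824.

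The label was checked against markers of activated T cells. Cd3e, a signalling chain of the T cell receptor complex (chromosome 9, 44998740 to 45009627, mm10), was at 279, 277 and 278 CPM in replicates 1, 2 and 3, a range of 1.01-fold. The coreceptor Cd4 (chromosome 6, 124864692 to 124888221) was at 415, 419 and 434 CPM, and Cd8a, a chain of the other coreceptor (chromosome 6, 71373427 to 71379173), at 349, 369 and 356 CPM. Il2ra, the high-affinity chain of the IL-2 receptor that appears on activation (chromosome 2, 11642807 to 11693193), was at 899, 1165 and 1207 CPM, lower in replicate 1 than in the others. Gzmb was at 2676, 2987 and 3015 CPM. Every one of these 5 markers was read at over 100 CPM in every library.

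The constant regions of the receptor itself were its most abundant parts. Trac, the constant region of the alpha chain, was at 524, 523 and 497 CPM per kb in replicates 1, 2 and 3. Trbc2 and Trbc1, the alternative constant regions of the beta chain, were at 483 ± 16.8 and 328 ± 15.4 CPM per kb, a ratio of 1.48, 1.45 and 1.49 in the 3 libraries. Trbc1 and Trbc2 are near-identical, so the way reads with several matches were handled could shift that ratio. Among the CD3 chains the level fell from Cd3d (202 ± 7.60 CPM per kb) through Cd3g (86.8 ± 3.36) and Cd3e (68.2 ± 0.223) to Cd247, the zeta chain (34.9 ± 1.83). The libraries of neighbours in this order did not overlap. The gamma-delta receptor was read far lower: its constant region Trdc stood at 4.45, 4.92 and 4.52 CPM per kb, and Trac exceeded it by 118, 106 and 109.9 times.

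CD4 and CD8 messages were present in near-equal amounts. Per kilobase Cd8a over Cd4 was 0.933, 0.978 and 0.909, below 1 in each library. With the length of the longest transcript in place of merged exons the mean ratio was 0.843. Cd8b1, the partner chain of Cd8a, was higher than Cd8a at 142 ± 3.69 CPM per kb. Runx3, the transcription factor of the CD8 lineage, was at 46.0 ± 1.65 CPM per kb, and Zbtb7b, the factor of the CD4 lineage, at 17.6 ± 0.564. In bulk RNA a smaller number of cells of a type and less RNA in each of them cannot be told apart, here and in every level below.

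The kinases and adaptors that relay the receptor signal were all read at 1 CPM or more in every library (19 of 19 listed). Lck, the kinase that first phosphorylates the CD3 chains, was at 219.8 ± 5.57 CPM per kb. The adhesion receptor Cd2 (187 ± 6.96 CPM per kb), the phosphatase Ptprc, also known as CD45 (129 ± 9.48), and the adaptor Lat (107 ± 2.96) followed. Bcl10 and Prkcq, which link the receptor to NF-kB, were the lowest of the list at 14.2 ± 1.55 and 18.4 ± 0.243 CPM per kb.

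**Figure D3:**
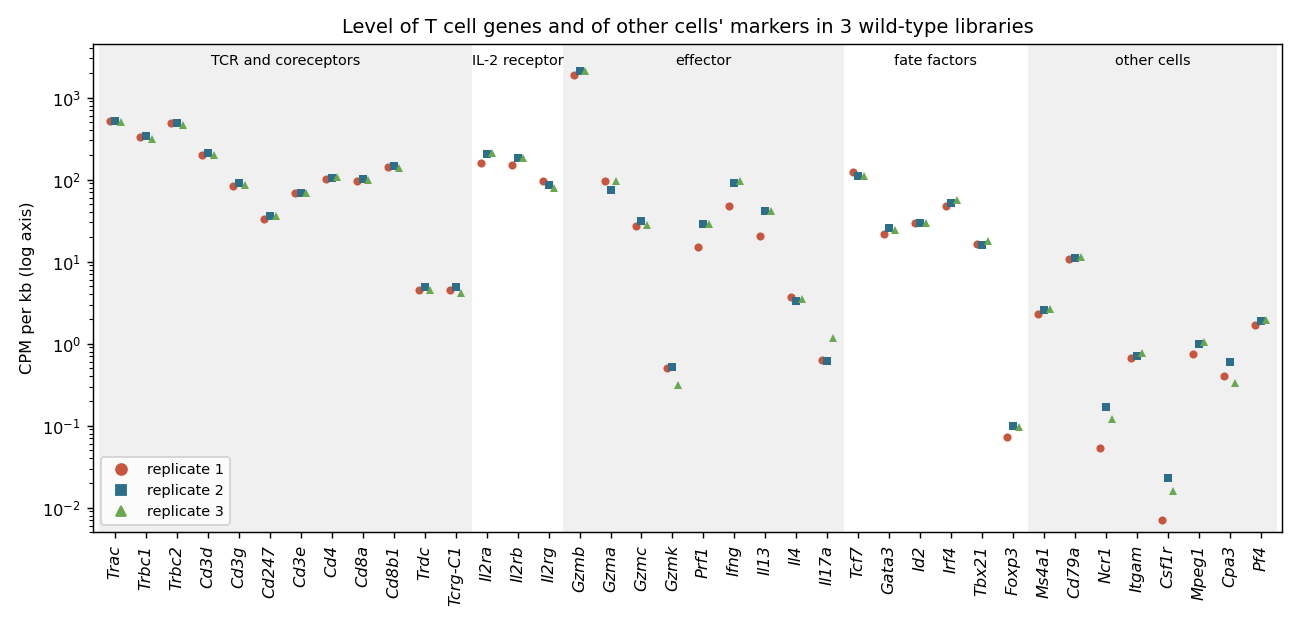
CPM per kb (vertical log axis) of T cell genes, effector genes, fate factors and markers of other cells in replicates 1, 2 and 3 (symbols); a value of 0 is not drawn. Gzmb lies near 2014 ± 131 CPM per kb, the receptor chains between Cd247 and Trac, and Foxp3 and the myeloid markers at the bottom, while Prf1, Ifng and Il13 show replicate 1 below the other libraries.

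The IL-2 receptor was read in all of its chains. Il2ra was at 157, 204 and 211 CPM per kb, Il2rb at 149.6, 182 and 184 and the shared gamma chain Il2rg at 95.6, 85.7 and 79.5 CPM per kb in replicates 1, 2 and 3. Il2ra and Il2rb were lower in replicate 1 than in the other libraries, and Il2rg was higher there. Jak3, the kinase bound to the gamma chain, was at 176 ± 6.50 CPM per kb. Downstream, Cish, a feedback inhibitor induced by STAT5, stood at 398, 441 and 441 CPM. Socs1, another feedback inhibitor, was at 28.8, 46.1 and 51.0 CPM and had the widest range of the list (1.77-fold). Il15ra was the lowest of the 14 listed genes at 4.5 ± 0.331 CPM per kb. The message of IL-2 itself was scarce at 1.15, 0.754 and 0.747 CPM.

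Activation receptors of the TNF receptor family were abundant. Tnfrsf9 (4-1BB), a costimulatory receptor of activated T cells, was at 461, 515 and 523 CPM per kb in replicates 1, 2 and 3. Tnfrsf18 (GITR) was at 375, 383 and 375 and Tnfrsf4 (OX40) at 358, 335 and 334 CPM per kb. All 3 stood above Slc3a2, the heavy chain of amino acid transporters (98.0 ± 2.62 CPM per kb), and above Cd28 (70.1 ± 4.62). Tfrc, the transferrin receptor that brings in iron, had the widest range of the list at 567, 435 and 445 CPM, highest in replicate 1. Cd69, an early activation marker, was the lowest of the list per kilobase (9.74 ± 0.629 CPM per kb), and Cd40lg, the ligand by which helper cells stimulate B cells, was next (14.6 ± 0.470).

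Inhibitory receptors were read beside them, at unequal levels. Lag3, a receptor for MHC class II, was at 251, 238 and 241 CPM per kb and Ctla4, the competitor of CD28, at 226, 191 and 193 CPM per kb. Ctla4 exceeded Cd28 per kilobase in each library, by 3.02, 2.91 and 2.76 times. Tigit (88.0 ± 2.39 CPM per kb) and Cd200 (40.6 ± 1.2) came next. Lower per kilobase, Pdcd1, which encodes PD-1, was at 23.6, 32.3 and 31.4 CPM, and Havcr2, which encodes TIM-3, stood at 11.5, 16.0 and 14.9 CPM. Tox, a factor tied to exhaustion, was the lowest of the 9 per kilobase, at 14.3, 11.1 and 11.8 CPM.

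Granzyme B message far exceeded that of its delivery protein. Gzmb (granule protease; chromosome 14, 56258838 to 56262260, mm10) was at 1864, 2079.8 and 2099.5 CPM per kb and Prf1, the pore-forming perforin (chromosome 10, 61297833 to 61304680), at 15.1, 28.9 and 29.0 CPM per kb. Their ratio was 123, 71.9 and 72.4 in replicates 1, 2 and 3, higher in replicate 1, where Prf1 was lowest. Serpinb6b (513 ± 22.9 CPM per kb), a relative of granzyme inhibitors, Nkg7 (337 ± 8.73), a granule membrane protein, and Srgn (199 ± 21.4), the granule proteoglycan, were the next of the list. Gzma was at 97.0, 75.2 and 96.6 and Gzmc at 27.2, 31.2 and 27.8 CPM per kb. Near the detection limit, Gzmk had 17, 22 and 14 counts and Gzmm had 10, 2 and 7. Gzmc to Gzmg are close copies in a single cluster on chromosome 14, so their separate values are uncertain.

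Cytokine genes spanned a wide range of levels, and the most abundant ones belonged to different helper programmes. Ltb (lymphotoxin beta) stood at 95.1, 80.9 and 77.9 CPM per kb in replicates 1, 2 and 3. Ifng, the interferon of killer and type 1 helper cells, was at 47.9, 91.2 and 95.8 and Lta (lymphotoxin alpha) at 67.0, 79.0 and 79.1 CPM per kb. Il13, a type 2 helper cytokine, followed at 20.5, 41.2 and 41.5 CPM per kb. For both Ifng and Il13 replicate 1 lay far below the other libraries, with ranges of 2.00 and 2.03-fold. Ifng exceeded Il4 per kilobase by 13, 27.8 and 27.0 times. The mean of this ratio was 22.6, and 11.9 with the length of the longest transcript. Il4, the defining type 2 helper cytokine, was at 4.52, 4.03 and 4.36 CPM, and its neighbour Il5, which acts on eosinophils, at 1.64, 3.90 and 3.67 CPM. Il10, a suppressive cytokine, was at 3.33, 2.95 and 3.17 CPM, and Il3, a growth factor of blood cells, at 3.16, 4.0 and 3.33 CPM. Il17a was at 0.740, 0.721 and 1.37 CPM, Il22 at 3, 2 and 4 counts and Il6 at 1, 5 and 3 counts. Among chemokine genes Xcl1, a dendritic cell attractant, led at 28.3 ± 2.63 CPM per kb, Ccl5 was at 13.1 ± 1.28, Ccl4 at 10.7 ± 1.57 and Ccl3 at 5.16 ± 0.954, and Ccl1 was at 0 in all 3 libraries.

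Fate factors of several T cell lineages were read together. Bhlhe40, a regulator of cytokine output, led its list at 181, 155 and 155 CPM per kb. Nfil3 (82.5 ± 4.0 CPM per kb), Irf4 (52.1 ± 3.90), whose level follows receptor signal strength, and Batf3 (37.1 ± 1.71) came next. Tbx21, the master factor of type 1 helper cells, was at 40.3, 39.9 and 43.8 CPM and Gata3, that of type 2 helper cells, at 86.0, 101 and 97.1 CPM. Foxp3, which defines regulatory T cells, was listed at 8, 14 and 14 counts, or 0.329, 0.459 and 0.436 CPM. Rora had the widest range of the list at 37.7, 22.8 and 22.4 CPM, highest in replicate 1.

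Genes of naive and recirculating T cells had not vanished. Ccr7, the chemokine receptor for lymph node entry, was at 209, 193 and 198 CPM per kb and Tcf7, a factor of naive and memory cells, at 124, 110.4 and 111 CPM per kb. Tcf7 exceeded Tbx21 by 7.68, 6.88 and 6.30 times per kilobase. Dapl1 followed at 60.6 ± 7.77 CPM per kb. Klf2, which maintains quiescence and recirculation, was the lowest of the naive list per kilobase, at 4.68, 3.93 and 5.16 CPM. Among the other trafficking genes the integrin chains Itgb2 (204 ± 0.689 CPM per kb) and Itgb7 (109 ± 4.02), the selectin ligand Selplg (108 ± 7.49) and Itgal, the partner of Itgb2 (89.0 ± 5.93), led. The inflammatory receptors were the lowest per kilobase, with Ccr2 at 5.84, 4.72 and 5.97 CPM and Ccr6 at 1.36, 1.41 and 1.74 CPM. Of the receptors of type 2 helper and regulatory cells, Ccr4 stood at 27.2, 37.6 and 44.7 CPM and Ccr8 at 25.1, 27.1 and 32.8 CPM, both lowest in replicate 1.

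All 19 listed glycolysis genes were at 1 CPM or more in every library, and 18 were at 100 CPM or more. Aldoa, which splits fructose bisphosphate, was at 1510.2, 1413 and 1321 CPM per kb, with replicate 1 highest. Ldha, which makes lactate, was at 669, 689 and 661 CPM per kb, Pkm, which makes pyruvate, at 573 ± 17.4, and Gapdh at 521 ± 31.9. The glucose transporter Slc2a3 was at 162, 146 and 151 CPM per kb and exceeded Slc2a1 by 2.21, 2.43 and 2.34 times. The lowest of the list were the lactate exporter Slc16a1 (25.1 ± 1.07 CPM per kb) and Pfkl, the liver-type phosphofructokinase (27.5 ± 2.66). Slc2a1 varied most of the list, at 257, 211 and 226 CPM. Gapdh, Aldoa, Pkm and Ldha have processed pseudogenes, so their values depend on how shared reads were assigned.

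The listed nuclear genes of the TCA cycle and respiration were read at lower levels per kilobase than the leading glycolytic ones. Respiratory genes encoded in mitochondrial DNA are not in this list and are given below. Atp5b and Atp5a1, subunits of the ATP synthase, were at 299.9 ± 6.74 and 265 ± 10.5 CPM per kb. Uqcrh and Cox4i1, subunits of the respiratory chain, were at 176 ± 8.32 and 174 ± 4.17 CPM per kb. The median of the 20 listed genes of the TCA cycle and respiration was 62.5 CPM per kb, against 75.6 for the 19 of glycolysis and 5.89 for all 13876 genes with a mean of at least 10 counts. Cycs, the electron carrier cytochrome c, was the lowest of the list at 8.27 ± 0.878 CPM per kb.

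Transcripts encoded in mitochondrial DNA gave a mixed picture. mt-Co1 was at 8995, 7989 and 7853 CPM and mt-Nd1 at 706, 889.9 and 880.1 CPM. The ratio of mt-Co1 to mt-Nd1 per kilobase was 7.89, 5.56 and 5.53. Replicate 1 had the highest mt-Co1 and the lowest mt-Nd1. Of the 15 listed genes, mt-Nd4l, mt-Co2, mt-Co3, mt-Atp6 and mt-Atp8 had no count in any library and mt-Nd3 had 1 count in replicate 3. These genes lie on the same long precursor transcript as mt-Co1, so their rows cannot be read as expression levels. Why they are empty was not tested, and copies of mitochondrial genes in the nuclear genome make the other rows uncertain as well. Among nuclear genes of mitochondrial shape, Fis1, an outer membrane adaptor, was at 40.7 ± 1.10 CPM per kb and Dnm1l, the GTPase Drp1 that divides mitochondria (chromosome 16, 16312230 to 16358959, mm10), at 22.2 ± 0.525 CPM per kb. By library Dnm1l was at 119, 114 and 114 CPM, a range of 1.04-fold, not past counting error. The fusion genes Opa1, Mfn2 and Mfn1 were at 13.8 ± 0.382, 11.1 ± 1.25 and 9.98 ± 0.391 CPM per kb. Park2 was read at 0, 1 and 0 counts, and Oma1, a stress-activated protease, had the widest range at 12.5, 16.4 and 19.0 CPM, lowest in replicate 1.

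The machinery of protein synthesis occupied the top of the ranking. Among ribosomal protein genes Rplp1, part of the stalk that recruits elongation factors, led at 5565, 5514 and 5534 CPM per kb, followed by Rpl4 (2667 ± 85.9), Rps15 (2663 ± 66.5) and Rplp0 (1936 ± 62.7). Of 90 such rows 84 were at 1 CPM or more in every library, and 2 (Rpl10l and Rps12l1) were at 0. Rpl24, a core ribosomal protein gene, was listed at only 1.11, 0.950 and 1.06 CPM, so low rows of this family cannot be read as levels. Most ribosomal protein genes have processed pseudogenes, and the handling of reads shared with them is unknown. Tpt1, a growth-related protein, and Eef1b2, which recharges the elongation factor, were at 775 ± 56.0 and 588 ± 20.4 CPM per kb, and Eif4e, the cap-binding factor, was the lowest of 19 listed translation factors at 17.9 ± 0.253 CPM per kb.

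Myc, the growth regulator (chromosome 15, 61985391 to 61990374, mm10), was at 127, 184 and 176 CPM in replicates 1, 2 and 3. Replicate 1 was the lowest. Of the genes listed with it, most of them of ribosome assembly, Npm1 and Ncl, abundant nucleolar proteins, led at 975 ± 67.8 and 139 ± 3.14 CPM per kb. The mitochondrial chaperones Hspd1 and Hspe1, also in this list, followed at 124 ± 7.13 and 107 ± 14.7 CPM per kb. Utp20 and Wdr12, assembly factors of the small and large subunit, were lowest at 3.87 ± 0.394 and 3.74 ± 0.295 CPM per kb.

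Genes of DNA replication and mitosis were read throughout. All 37 listed replication genes were at 1 CPM or more in every library. Mcm6, Mcm3 and Mcm4, subunits of the replicative helicase, were at 94.2 ± 2.80, 68.9 ± 5.48 and 65.7 ± 2.58 CPM per kb and Pcna, the sliding clamp, at 70.6 ± 4.93, the 4 highest of the list. Tyms and Ccne2 were the lowest of the list at 5.56 ± 0.310 and 4.5 ± 0.158 CPM per kb. Of the 25 mitosis genes, Top2a, which untangles chromosomes, was at 137, 129.5 and 127 CPM per kb and Mki67, the proliferation antigen Ki-67, at 75.4, 80.6 and 83.2 CPM per kb. Ccnb2 and Ube2c, which drive entry into and exit from mitosis, were at 76.8 ± 3.55 and 67.9 ± 2.00 CPM per kb. Bub1, a spindle checkpoint kinase, had the widest range of the mitosis genes at 171, 148 and 139 CPM, highest in replicate 1.

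Actin regulators and chaperones completed the abundant classes. Tmsb4x and Actb led the cytoskeleton list, with Tmsb10 at 632 ± 18.3 and Tubb5, the main beta tubulin, at 587 ± 19.6 CPM per kb. Actb itself was at 2559, 3017 and 2904 CPM and lowest in replicate 1. Of the chaperones, P4hb, which forms disulfide bonds, Cct2, part of the folding chamber for actin and tubulin, and Hspa8 were at 335 ± 24.6, 294 ± 8.32 and 278 ± 3.47 CPM per kb. MHC class I genes were high: H2-K1 stood at 668 ± 28.7, H2-D1 at 556 ± 8.16 and H2-Q7 at 165 ± 12.4 CPM per kb. These H2 genes are close copies, so the split between them is uncertain.

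Messages of other spleen cells were present, most at low to moderate levels and those of immunoglobulin chains higher. Of 12 B cell markers 11 were at 1 CPM or more in every library, against 11765 of all 45808 rows. Only 1 of them was at 100 CPM or more in every library. The list summed to 597, 601 and 619 CPM in replicates 1, 2 and 3. Ighm, the heavy chain constant region of IgM, was at 172, 167 and 170.4 CPM per kb, and Igkc, the kappa light chain, at 121, 127 and 134 CPM per kb. Both exceeded Cd3g (86.8 CPM per kb), Cd3e (68.2) and Cd247 (34.9). Both lay below Cd3d (202) and the constant regions Trac, Trbc1 and Trbc2. Ighm also exceeded the highest gene of the CD4 and CD8 lineage list (142 CPM per kb). Of the B cell factors, Pax5 was at 20, 19.4 and 22.8 CPM and Ebf1 at 6.57, 6.16 and 8.03 CPM. MHC class II genes summed to 449, 451 and 461 CPM, led by Cd74, the invariant chain, at 168, 179.5 and 179 CPM. Of 12 macrophage and granulocyte markers S100a8, S100a9, Elane and C1qa were at 0 in all 3 libraries, and the list summed to 7.89, 9.34 and 9.86 CPM. Dendritic cell markers summed to 14.9, 13.6 and 12.6 CPM, with Siglech and Xcr1 at 0. The NK cell list summed to 217, 205 and 216 CPM, nearly all from Klrk1 (91.6, 98.6 and 102 CPM), Klrd1 (76.3, 68.6 and 71.0) and Klrc1 (46.1, 33.5 and 39.4), receptors that activated CD8 T cells also make, while Ncr1, the defining NK receptor, had 2, 8 and 6 counts. The mast cell list summed to 58.1, 61.4 and 53.9 CPM, mainly Kit (56.7, 59.6 and 52.4), with Cpa3 at 0.616, 0.918 and 0.498 CPM and Tpsb2 at 0. The platelet list summed to 7.36, 9.67 and 9.27 CPM with Gp6 at 0, the stromal list to 27.3, 32.0 and 31.5 CPM with Col3a1 at 0, and the erythroid list to 0.370, 0.786 and 0.436 CPM with Hba-a2 and Alas2 at 0.

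In most gene families 1 member carried most of the message. Of 76 families compared per kilobase, 56 had a member with at least 50% of the family's summed level in each library, 26 one with at least 80% and 12 one with at least 95%. The CD3 chains, led by Cd3d and counted among the 56, and the IL-2 receptor chains are parts of a shared receptor. A leading member there is not a choice between paralogs. Many of these families are pairs, such as those of EZH and ferritin. In a pair 1 member holds at least 50% of any single library by arithmetic. For pairs, passing 50% therefore shows only that the same member led in each library. Shares varied little, with a median SD over libraries of 0.839 percentage points and a largest SD of 5.60. With the length of the longest transcript 58 families passed 50%, and 6 had another leading member.

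Metabolic and translation families ranged from a single member read to an even split. Eef1a1 and Pkm were the only members read of their pairs, with Eef1a2 and Pklr at 0 in all 3 libraries. Ldha held 98.4, 98.3 and 98.3% of the lactate dehydrogenase level in replicates 1, 2 and 3, and Aldoa held 95.7, 95.4 and 95.3% of the aldolase level. Slc2a3 carried 66.4, 67.5 and 66.9% of the glucose transporter level, ahead of Slc2a1 with 30.1, 27.8 and 28.6%. Hk1 held 58.6, 55.6 and 55.9% of the hexokinase level and Hk2 39.4, 42.4 and 41.9%. Idh2, the mitochondrial NADP isocitrate dehydrogenase, held 84.4, 82.0 and 82.9%. Eif4a2, an RNA helicase of initiation, held 54.6, 49.8 and 50.2% against Eif4a1, and Pdk1 50.2, 49.7 and 48.9% of the pyruvate dehydrogenase kinase level, neither passing 50% in every library.

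In several signalling families the leading member was one known from lymphocytes. Zap70 held 98.7, 98.5 and 98.2% against Syk, and Lck held 81.9, 81.5 and 80.7% of the Src family level with Fyn next (15.1, 15.5 and 16.0%). Pik3cd, the delta catalytic subunit of PI3 kinase, carried 86.3, 84.5 and 84.5%, Rac2 84.1, 84.7 and 84.5%, Ikzf1, the Ikaros factor, 76.6, 75 and 75.8%, and Jak3 56.4, 56.8 and 57.2%. Among fate factors Tcf7 held 87.5, 86.9 and 87.2% over Lef1, Runx3 81.3, 83.7 and 82.9% over Runx2, Id2 68.7, 70.4 and 69.1% over Id3 and Tbx21 82.2, 76.4 and 79.4% over Eomes. Gzmb held 93.5, 94.9 and 94.2% of the granzyme level, with Gzma next (4.86, 3.43 and 4.33%).

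In 20 families no member passed 50% in all 3 libraries. The lowest leading share was that of the STAT factors, where Stat5b held 24.2, 23.2 and 23.3% and Stat3 21.7, 20.3 and 20.5%. Nfkb2 (26.6, 27.7 and 28.8%) and Nfkb1 (25.6, 27.8 and 27.4%) shared the NF-kB level, and Nfatc3 (32.9, 30.7 and 30.5%) and Nfatc1 (27.9, 31.3 and 29.9%) that of NFAT. In protein kinase C Prkch led with 31.1, 33.2 and 33.2%, in diacylglycerol kinase Dgka with 39.3, 38.1 and 38.1% and among the Orai calcium channels Orai1 with 46.6, 44.6 and 47.1%. For STAT, NF-kB, cyclin D, mitofusin and peroxiredoxin the leader changed with the longest transcript as length. The same held for the calcium sensors, where Stim2 had 54.2, 55.2 and 53.4% per kilobase of merged exons. In several of the 20 the libraries fell on both sides of 50%. Ccnd2, the cyclin of the first growth phase, held 49.9, 53.0 and 55.5%, lowest in replicate 1, and Mfn2 48.1, 55.3 and 54.1%, also lowest in replicate 1. Tet2, a DNA demethylase, held 56.5, 47.2 and 46.4%, highest in replicate 1, as did the survival factor Mcl1 with 56.0, 49.9 and 49.3%. Without replicate 1, 58 families passed 50%.

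**Figure D4:**
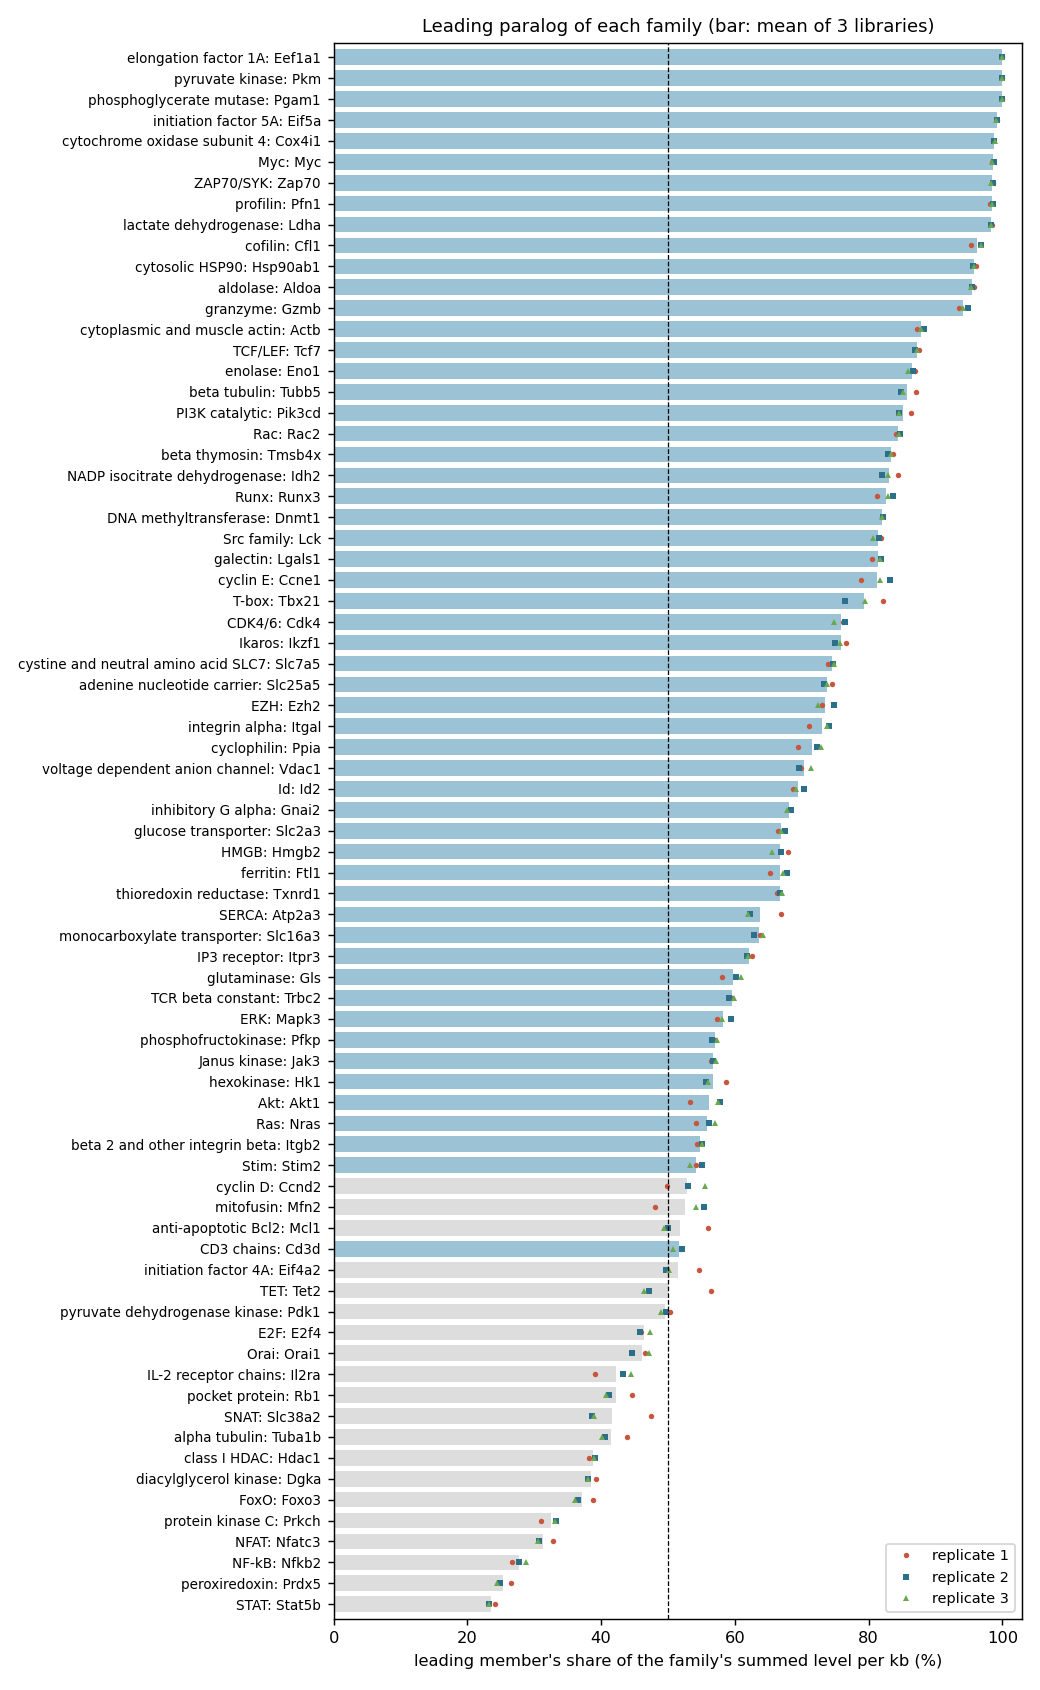
Share of the leading member in the summed CPM per kb of its family (horizontal axis, percent) for the families compared, 1 of them left out of the plot. Bars are means over 3 libraries and symbols are the libraries. Blue bars are the families with at least 50% in each library, and the dashed line is 50%. The pairs led by Eef1a1 and Pkm reach 100% and Stat5b, at the bottom, 23.5 ± 0.524% (SD, n = 3).

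The spread between libraries was larger than counting error for a large part of the genes. A chi-square test of the 3 raw counts of each gene, with Benjamini-Hochberg adjustment over 13876 genes with a mean of at least 10 counts, called 5447 of them (39.3%), and 672 without replicate 1. A range of at least 1.5-fold between the highest and lowest library was reached by 1837 genes (13.2%), and by 623 without replicate 1. The median range fell with level, from 1.59-fold below 1 CPM to 1.11-fold between 20 and 100 CPM and 1.08-fold at 1000 CPM or more. In that last class 84 of 88 genes were past counting error and 0 reached 1.5-fold. Replicate 1 was at least 1.5-fold above both other libraries for 271 genes (1.95%) and below both for 441 (3.18%). For replicate 2 the same counts were 97 (0.699%) and 123 (0.886%), and for replicate 3 they were 93 (0.67%) and 131 (0.944%).

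Among the 7237 genes at a mean of 20 CPM or more, the 10 widest ranges included several effector genes. Il13 came first at 24.7, 49.7 and 50.1 CPM, a range of 2.03-fold. Ifng followed at 62.0, 118 and 124 CPM (2.00-fold). In both, replicates 2 and 3 lay together and replicate 1 far below. Il4i1, an amino acid oxidase induced in lymphocytes, was at 13.4, 25.1 and 26.6 CPM, Prf1 at 39.1, 74.7 and 74.9 CPM, and the cytokine Lif at 66.2, 116 and 125 CPM. Socs1, Knop1 and Ppp1r10 also had replicate 1 lowest, with ranges of 1.77, 1.79 and 1.73-fold. The opposite pattern was held by Ypel2 at 41.1, 26.0 and 22.7 CPM and Cdkn1b, the cell cycle inhibitor p27, at 404, 232 and 237 CPM, both highest in replicate 1. All 10 genes of this ranking thus had replicate 1 at an end, and for none did replicates 2 and 3 differ by as much as replicate 1 did from either.

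The narrowest ranges among 2372 genes at a mean of 100 CPM or more included genes of general cell machinery. Psme2, an activator of the proteasome, was at 176, 176 and 177 CPM, and Lrrfip1 at 210.3, 211 and 210.1 CPM. Rpl12 (2243, 2250.3 and 2248 CPM), Sash3 (402, 402 and 401), an adaptor of lymphocytes, and Fbxw11 (114, 115 and 115), a ubiquitin ligase subunit, followed, then Anapc5, Spop, Usp1, Abl1 and Isy1. The libraries of these 10 genes lay within 1.01-fold of each other, and none was called past counting error. Both follow from the choice of the narrowest ranges and do not show that these genes are unusually stable. With library totals alone as the scaling, the range was 1.026-fold for Psme2 and 1.027-fold for Lrrfip1.

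Genes of the response to low oxygen were higher in replicate 1. Of 20 listed genes replicate 1 was the highest library for 18, against 37.7% of all 13876 genes, and the lowest for 1, against 46.1%. Their median log2 difference between replicate 1 and the mean of replicates 2 and 3 was 0.34, against -0.02 over all genes. Ddit4, an inhibitor of mTOR signalling, was the highest of the list per kilobase, at 489.9, 428 and 425 CPM per kb. Ndrg1, a growth regulator induced by hypoxia, was at 502, 339.8 and 327 CPM, and Vegfa, the angiogenic growth factor, at 194, 134 and 133 CPM. Bnip3l, which marks mitochondria for removal, was at 294, 214 and 212 CPM and Ero1l, which oxidises protein disulfides, at 1271, 953 and 969.9 CPM. In each of these 5 genes replicates 2 and 3 lay close together below replicate 1. Between replicates 2 and 3 alone the median log2 difference of the list was 0.03. The exceptions were Stc2, lowest in replicate 1 at 52.5, 68.7 and 67.0 CPM, and Egln3, an oxygen-sensing hydroxylase, at 324, 319 and 339 CPM.

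Genes of the Myc and ribosome assembly list, which also holds the chaperones Hspd1 and Hspe1, went the other way. Replicate 1 was the lowest library for 22 of 25 listed genes, against 46.1% of all tested genes, and the highest for 3, against 37.7%. The median log2 difference of the list was -0.27, against -0.02 over all tested genes. Nolc1, a nucleolar scaffold, was at 60.3, 90.3 and 90.1 CPM and Polr1b, a subunit of RNA polymerase I, at 21.4, 30.1 and 32.8 CPM. Nop56, a core protein of box C/D particles, was at 95.4, 131 and 129.7 CPM. In all of these replicate 1 was the low library and replicates 2 and 3 lay together, as they did for Myc. Between replicates 2 and 3 alone the median log2 difference of the list was -0.03. Npm1, Ncl and Hspe1 were the 3 exceptions, with replicate 1 highest.

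The promoters of these groups carried known elements in part. The core of the hypoxia response element, TACGTG, and the E-box bound by Myc and its relatives, CACGTG, were searched on both strands of promoters running from 250 bases before to 50 bases after the start of each gene (RefSeq, GRCm38.p6). The elements share the letters ACGTG, and CACGTG reads the same on both strands. A gene was counted when any of its promoters held a match. Among genes with a promoter, TACGTG was found in 4 of 17 hypoxia genes (23.5%), against 4.52% of 9829 tested genes and 3.67% of all 27025 genes. TACGTG was found in 1 of 19 genes of the Myc list (5.26%). CACGTG was found in 4 of 19 genes of the Myc list (21.1%) and in 2 of the 17 hypoxia genes (11.8%). The shares were 11.8% of tested genes and 8.09% of all genes with a promoter. A choice of windows around matches upstream of the start is printed 5′ to 3′ on the strand of the gene, with the matched letters in capitals, because the genes they belong to lay at opposite ends in replicate 1. The match in P4ha1 and another one in Ankrd37, both close to the start, are not printed.
Egln1 (chr8:124949278-124949363, minus strand): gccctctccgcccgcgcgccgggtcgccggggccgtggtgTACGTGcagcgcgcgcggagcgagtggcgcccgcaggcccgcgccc
P4ha2 (chr11:54100805-54100890, plus strand): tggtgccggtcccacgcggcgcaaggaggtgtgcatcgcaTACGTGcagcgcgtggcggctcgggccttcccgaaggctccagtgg
Ankrd37 (chr8:46000047-46000100, minus strand): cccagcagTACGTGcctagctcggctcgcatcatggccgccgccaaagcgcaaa
Nop2 (chr6:125131783-125131868, plus strand): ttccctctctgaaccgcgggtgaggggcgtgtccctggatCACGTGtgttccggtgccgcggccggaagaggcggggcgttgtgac
Hspd1 (chr1:55088278-55088363, minus strand): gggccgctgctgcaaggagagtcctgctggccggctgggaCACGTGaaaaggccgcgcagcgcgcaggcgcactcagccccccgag

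Egln1, an oxygen-sensing hydroxylase, was at 326, 281 and 269 CPM in replicates 1, 2 and 3, and of the collagen hydroxylases that hold the element P4ha1 was at 338, 293 and 276 CPM and P4ha2 at 144, 107 and 101 CPM. Ankrd37, which holds the element in 2 places of its promoter, was at 64.6, 46.7 and 45.8 CPM. All 4 had replicate 1 highest, as did 18 of the 20 listed hypoxia genes and 37.7% of all tested genes. With the E-box, Pes1, a ribosome assembly factor, was at 83.0, 92.6 and 93.0 CPM, Nop2, an rRNA methyltransferase, at 39.8, 55.4 and 57.8 CPM and Hspd1 at 305, 339 and 336 CPM, each with replicate 1 lowest. Utp20 held CACGTG as well and was at 34.9, 41.1 and 42.4 CPM. Replicate 1 was lowest for 22 of the 25 genes of the Myc list, against 46.1% of all tested genes. Both lists were searched because their members ordered alike over the libraries. The order of the genes with a match therefore adds nothing on the elements. A match describes letters in these windows and does not show a site in use.

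Among other lists, replicate 1 was lowest for 32 of 37 replication genes, with a median log2 difference of -0.18, and for 17 of 23 cytoskeleton genes (-0.10), against 46.1% of all tested genes. The platelet list, with only 3 tested members, had a median of -0.39. Fen1, a flap nuclease of lagging-strand synthesis, was at 32.9, 46.2 and 47.8 CPM, and Rrm2, which makes deoxyribonucleotides, at 119, 162 and 157 CPM. Replicate 1 was highest for 72 of 86 ribosomal protein genes, against 37.7% of all tested genes, by a median of only 0.09, and for 52 of them when library totals alone set the scale. Of 15 tested cytokine genes 7 had a range of at least 1.5-fold (46.7%), against 13.2% of all genes. That background is not matched for level: the cytokine genes had a median of 8.27 CPM, against 24.1 for all tested genes. Such a range was reached by 26.4% of genes from 1 to 5 CPM and by 1.09% from 20 to 100 CPM. The cytokine median log2 difference between replicate 1 and the others was -0.22. Il5 had the widest range of the cytokine genes at 1.64, 3.90 and 3.67 CPM, and Il21 stood on the other side at 10.9, 6.69 and 7.19 CPM, highest in replicate 1. Glycolysis genes had a median of 0.07. The T cell receptor and CD3 list had a median of 0.01, and none of its 7 genes reached 1.5-fold.

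**Figure D5:**
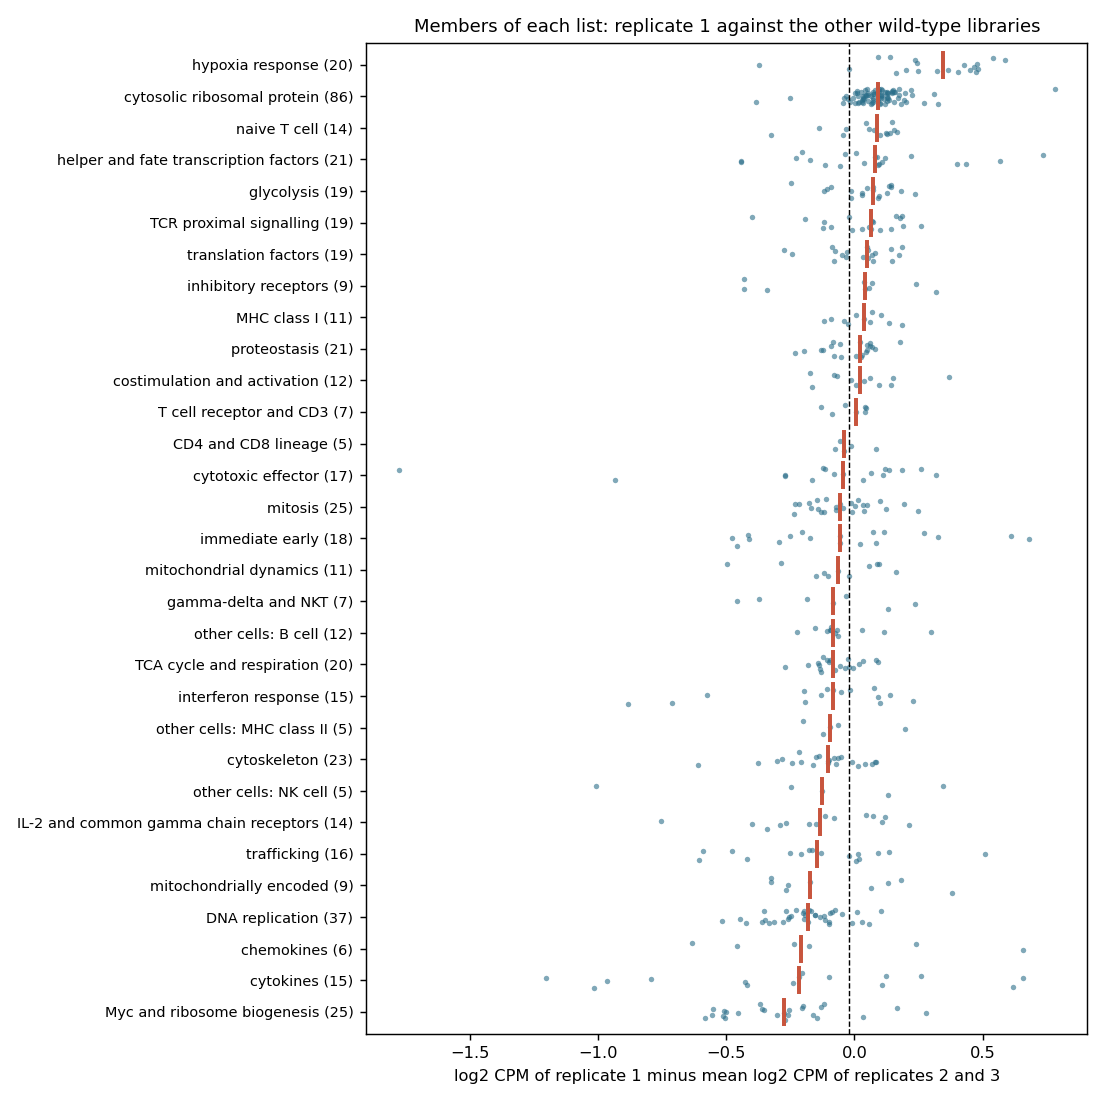
Difference in log2 CPM between replicate 1 and the mean of replicates 2 and 3 (horizontal axis) for each tested member (points) of the lists with at least 5 tested members (vertical axis, number tested in brackets); vertical jitter is for display, red bars are list medians and the dashed line is the median of all tested genes (-0.02). The hypoxia list lies to the right (0.34) and the Myc and ribosome biogenesis list to the left (-0.27).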

How the data were processed

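RNA was measured in 3 wild-type libraries, grouped by their genotype labels; the 3 Drp1-/- libraries of the series were left out. The libraries were made with a stranded mRNA kit, per the labels' protocols. The authors deposited raw counts per gene symbol. The genome build mm10 and the tools STAR 2.5.2, Cufflinks, HTSeq 0.6.1, FastQC and DESeq2 1.12 are listed per the submitters' processing notes. Not given in the sources used here are the strand setting, the annotation release and the treatment of reads with several matches. Overlapping genes, paralogs and genes with pseudogenes are therefore uncertain. Rows with symbols turned into dates (27, up to 0.247% of counts) stayed in the totals.

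Counts were scaled with edgeR 4.0.16 (R 4.3.3, TMM over the 3 libraries). CPM was divided by merged exon length (GENCODE, mm10, matched by symbol, found for 98.2% of tested genes, 398 through an older symbol). Genes with a mean of at least 10 counts were tested for spread beyond counting error by a chi-square test with 2 degrees of freedom and Benjamini-Hochberg adjustment, called at an adjusted p under 0.05; these 13876 genes held 99.9% of counts. Counting error is the only error that this test takes into account. Scripts were tested on simulated data (scipy 1.17.1, pandas 2.3.3, Python 3.11.15); figures used matplotlib 3.10.9. No sample column of the table was without a label.

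The 39 gene lists (617 of 618 entries in the table), the 76 families and the rule for named genes were chosen with earlier results of these data known. The rule named Dnm1l, Myc and the 5 markers; the 12 highest genes by CPM and by CPM per kb; in each list the 4 highest, 2 lowest and the most variable member; in each family the leader and the next; and the 10 genes with the widest and the 10 with the narrowest range. Other list members were named after their values were seen, and some genes that the rule named are not reported here. The alternatives were other scalings, filters, thresholds and lengths, and leaving out each library.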

Additional observations from a re-analysis of the deposited data

How the results depend on the processing

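Leaving out 1 library gave 672 to 4975 genes past counting error (5447 with all 3), 623 to 1239 with a 1.5-fold range (1837) and a coefficient of variation of 2.61% to 9.93% (7.80%); the lowest value each time was that without replicate 1. The range without replicate 3 was reached by 1138 genes. The number of genes with 1 library apart (1070) has no such check, since with 2 libraries left it is the same quantity as the range. With a mean of 1 count as the filter 6371 genes had a 1.5-fold range and 5272 had 1 library apart; with 1 CPM in every library these counts were 614 and 273, and at 2-fold they were 568 and 239. At a share of 80% the number of families with a dominant member was 26, not 56. The cause of these differences was not tested, beyond the number of genes that each filter admits. Scaling by library totals, DESeq2 1.42.0 size factors or upper quartile factors kept all these counts within 1.5 times. No paired analysis was possible because the replicates of a single group were described. Depth limits low genes: below 1 CPM the median range was 1.59-fold.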

Other observations

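Interferon-induced genes were read at uneven levels. Igtp, a GTPase that guards against intracellular pathogens and is induced by interferon gamma, was at 72.6, 77.4 and 76.5 CPM per kb in replicates 1, 2 and 3. Gbp2 (34.2 ± 1.22 CPM per kb) and the transcription factor Irf1 (31.6 ± 1.78) followed. Genes known mainly from the type I interferon response were low: Ifit1 was at 1.15, 1.21 and 1.31 CPM, Mx1 at 1.56, 2.23 and 2.43 CPM and Ifit3 at 8, 3 and 5 counts. Iigp1, another guard GTPase, was lowest in replicate 1 at 4.77, 7.47 and 8.15 CPM, as Ifng was.

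Immediate early genes, which receptor signals switch on within minutes, spanned a wide range. Junb led at 121, 120.0 and 131 CPM per kb, Nr4a1, a reporter of receptor signalling, was at 62.0 ± 2.13 CPM per kb, and Egr1 was at 24.8 ± 2.61. Fos was at 6.29, 4.78 and 5.66 CPM and Fosb at 2.88, 1.67 and 1.93 CPM. Nr4a2 was highest in replicate 1 at 85.1, 55.3 and 56.0 CPM, while Jund was lowest there at 101, 129.8 and 152 CPM. Among nuclear and small nucleolar host RNAs Gas5 was at 980.4, 905 and 862 CPM, highest in replicate 1. The Y-linked gene Eif2s3y was read at 223, 186 and 182 CPM and Ddx3y at 148, 104 and 105 CPM. Xist, the RNA of the inactive X chromosome, had 0, 3 and 1 counts.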
